A study of Mus musculus with 3 samples.

Results

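Chaperone genes were compared between the bone marrow of castrated C57BL/6 mice given testosterone and that of matched castrated mice given placebo, on 3 two-colour spotted arrays. The genes taken were those whose symbols name a heat-shock protein (Hspa, Hsp90, Hspb, Hspd, Hspe, Hsph), a J-domain protein (Dnaja, Dnajb, Dnajc), a subunit of the cytosolic chaperonin (Cct2 to Cct8, Tcp1), a prefoldin (Pfdn), a Bag protein (Bag1 to Bag6) or Stip1, and that had a value on all 3 arrays. There were 33 such genes of 3462 measured genes, read from 48 spots. The array carried 40 genes whose symbols match, on 68 spots with a single annotated gene. The other 7 lacked a value on at least 1 array and are described at the end. Each array (T1, T2 and T3) held 1 pair of mice, which gives 1 group of 3 pairs. Both mice of a pair were castrated at 7 weeks of age, received a testosterone or placebo pellet (12.5 mg, released over 60 days) for 4 weeks and were 17 weeks old. The testosterone RNA carried Cy5 on T1 and on T3, and Cy3 on T2, where the dyes were swapped. RNA came from pulverized whole femora, tibiae and humeri, which the labels name bone marrow.

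A value is the ratio of testosterone to placebo within a pair. It is read as log2, so that 1 is 2-fold higher with testosterone and 0 is no difference. The log base is inferred from the range of the values, and the direction is likely and not settled, since the study calls testosterone its experimental channel without stating how the ratio was formed. Ratios give no level, so the labelled tissue could not be checked for the presence of its markers, and genes cannot be ranked by abundance. In a ratio from pulverized whole bones, fewer cells of a type and less RNA per cell cannot be told apart.

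Chaperones bind proteins that are not yet folded or have lost their fold. The HSP70 proteins, named Hspa, bind short exposed stretches and are switched on by J-domain proteins (Dnaj), while nucleotide exchange factors such as the Hsph and Bag proteins release the bound protein. HSP90 works late in folding and holds many kinases and steroid receptors, the androgen receptor among them, and the ring-shaped chaperonin TRiC folds actin and tubulin inside its cavity. Some of these genes are always active, and others are induced by the heat shock factor Hsf1 when unfolded protein builds up.

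T1 stood apart from the other arrays. Over the 6051 spots with a value on every array, T1 correlated with T2 at r = 0.42 and with T3 at r = 0.49, against 0.73 between T2 and T3, which had opposite dyes. Of 11552 spots, T1 had a value for 9007, T2 for 6771 and T3 for 6982. Results are therefore given for each array, and for the inducible genes, Hspa8 and Hspa2 also with single arrays left out. The medians of all 3462 genes on T1, T2 and T3 were -0.04, -0.12 and -0.06, so a ratio of 0 lies slightly above the middle gene of each array.

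One of the 33 genes passed the test over all genes, and it was lower. Hspa2, an HSP70 protein best known from male germ cells, had a mean log2 ratio of -0.72 ± 0.43 (SD over n = 3 pairs), which is 1.65-fold lower (limma, Benjamini-Hochberg adjusted p = 0.0475). No gene of the 33 passed as higher. Over all 3462 genes, 58 passed as higher, which is 1.68%, and 112 as lower, which is 3.24%, so a single lower gene among 33 is near the background. At an unadjusted p under 0.05 by limma, 2 of the 33 were higher (Dnajb1 and Hsph1) and 4 lower (Hspa2, Hsp90b1, Cct2 and Dnaja3), which is 6.06% and 12.1% of them against 12% and 16.1% of all genes. Without T1 the same fit called 5 of the 33 as higher (Hsph1, Dnaja1, Dnajb1, Hsp90aa1 and Hspa8) and Hspa2 as lower, against 8.38% and 9.62% of all genes. Without T2, and again without T3, it called none in either direction, against 0.0289% higher without either array and 0.982% lower without T2 or 0.924% lower without T3. The 5 genes called higher without T1 had their lowest ratio on T1, so leaving T1 out raised their means. A fit without 1 array has 2 pairs, and its p-values rest largely on the variance that limma shares over all genes. With other settings, the shares of all genes that passed as higher and lower were 5.2% and 5.92% with a dye term (1 and 0 of the 33), 6.82% and 7.57% at a threshold of 0.10 (2 and 1), 1.21% and 1.68% after median centring (0 and 0), 5.89% and 3.06% after centring and scaling (0 and 0), 1.56% and 3.26% with robust eBayes (0 and 0) and 1.83% and 3.32% with the platform's own symbols (0 and 1). On single spots they were 1.14% and 1.7% (0 and 0), and with the sign of T2 turned no gene passed. An exact sign-flip test of a single gene over 3 pairs cannot go below p = 0.25, so none was run.

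**Figure D1:**
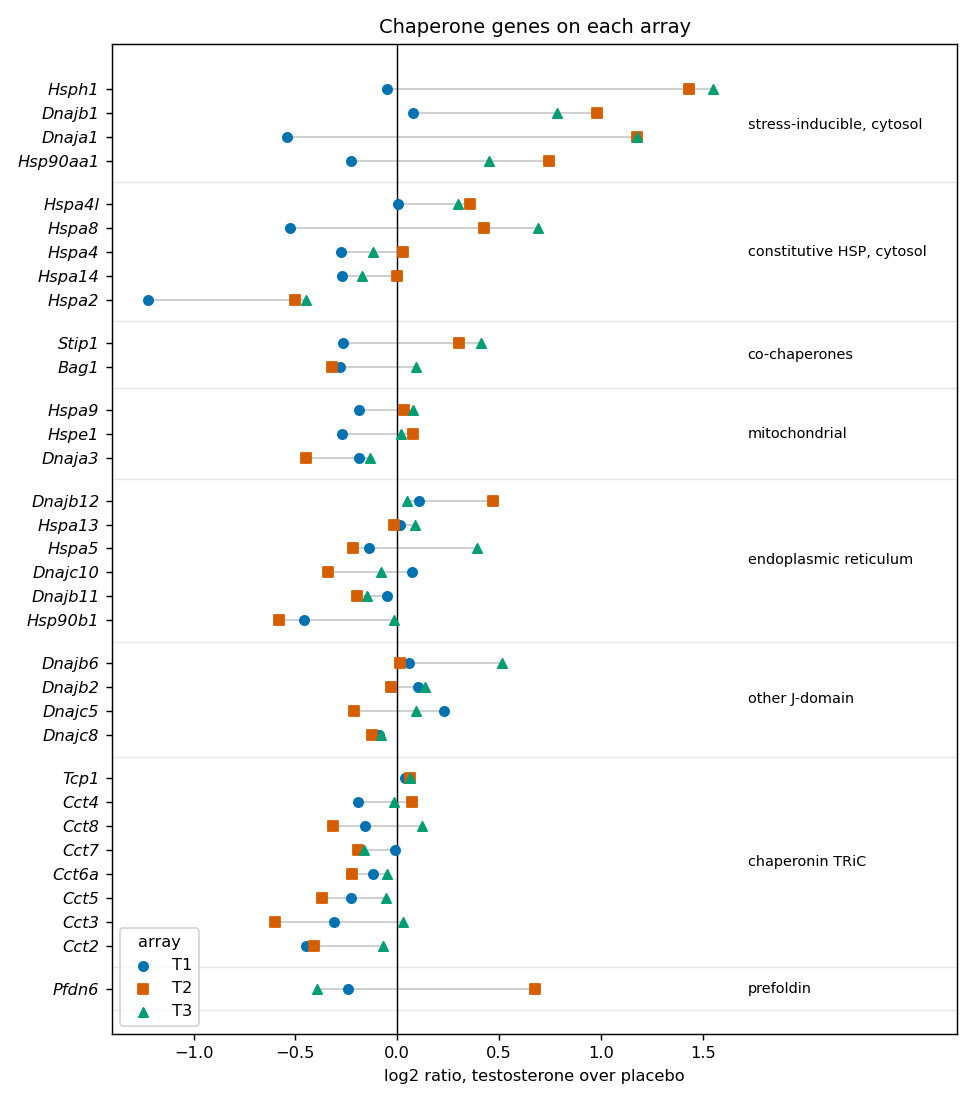
Log2 ratio of testosterone to placebo (x axis) of each of the 33 chaperone genes (rows, grouped by role) on the 3 arrays (circle T1, square T2, triangle T3); the grey line joins the lowest and the highest array. The 4 stress-inducible genes lie between 0.45 and 1.55 on T2 and T3 and between -0.54 and 0.08 on T1.

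The stress-inducible genes of the cytosol were the 4 highest of the 33 by mean and on T2, and not on T1. On T3, Hspa8 and Dnajb6 lay above the lowest of the 4. Hsph1, Dnajb1, Dnaja1 and Hsp90aa1 were measured of 9 genes listed for that group. Hsph1, the large HSP110 protein that exchanges nucleotide on HSP70, had a log2 ratio of -0.05, 1.43 and 1.55 on T1, T2 and T3. It stood near the middle of all genes on T1 (percentile 48.2, the share of genes at or below it) and was the 19th highest of 3462 genes on T2 and the 6th highest on T3. Its mean of 0.98 ± 0.89 (n = 3) did not pass by limma (95% interval 0.33 to 1.62, adjusted p = 0.0758), and of the fits that left out 1 array it passed without T1 (1.49, adjusted p = 2.49e-10 by limma from 2 pairs) and not without T2 (0.75, 0.359) or T3 (0.69, 0.356).

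Dnaja1, a J-domain partner of HSP70 in the cytosol, had log2 ratios of -0.54, 1.18 and 1.18 on T1, T2 and T3. The pairs on T2 and T3 gave nearly the same value, and T1 lay on the other side of 0, at percentile 3.5 of all genes. Its mean of 0.60 ± 0.99 (n = 3) had an adjusted p of 0.238 by limma. Leaving out T1 gave 1.18 (adjusted p = 5.21e-08), leaving out T2 gave 0.32 (0.676) and leaving out T3 also 0.32 (0.688). These values come from the single Dnaja1 spot measured on all arrays, and another, with a value on T1 only, had -0.04. Dnajb1, the J-domain protein HSP40 that rises with HSP70 under heat, was the only one of the 4 above 0 on every array, with 0.08, 0.98 and 0.79 on T1, T2 and T3. Its mean was 0.62 ± 0.48 (adjusted p = 0.0703 by limma), and it passed with a dye term in the fit (0.71, adjusted p = 0.0492 by limma). By limma it also passed when T1 was left out (0.88, adjusted p = 1.29e-05), and not when T2 (0.43, 0.328) or T3 (0.53, 0.332) was.

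Hsp90aa1, the inducible cytosolic HSP90, was the most heavily sampled of the 33, with 9 spots measured on all arrays. Its gene mean was -0.23, 0.74 and 0.45 on T1, T2 and T3, and 0.32 ± 0.50 over the arrays (n = 3; adjusted p = 0.26 by limma). The fit of T2 and T3 gave 0.60 (adjusted p = 0.00225 by limma), that of T1 and T3 0.11 (0.763) and that of T1 and T2 0.26 (0.612). Every spot with a value on T1 showed the same split. On T1 the 9 spots with a value ran from -0.33 to -0.10, on T2 all 12 spots from 0.51 to 1.07 and on T3 all 12 from 0.23 to 0.69. The pair of spots annotated to both Hsp90aa1 and the predicted gene Gm12346, which were left out of the gene mean, had -0.15 and -0.23 on T1, and they stood at 0.85 and 1.12 on T2 and at 0.46 and 0.70 on T3. For Hsp90aa1 the spots on T1 therefore did not overlap those on T2 or T3. The spots of an array read the same pair of mice, so they repeat a measurement and add no pairs. How often the spots of other genes fail to overlap was not counted.

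**Figure D2:**
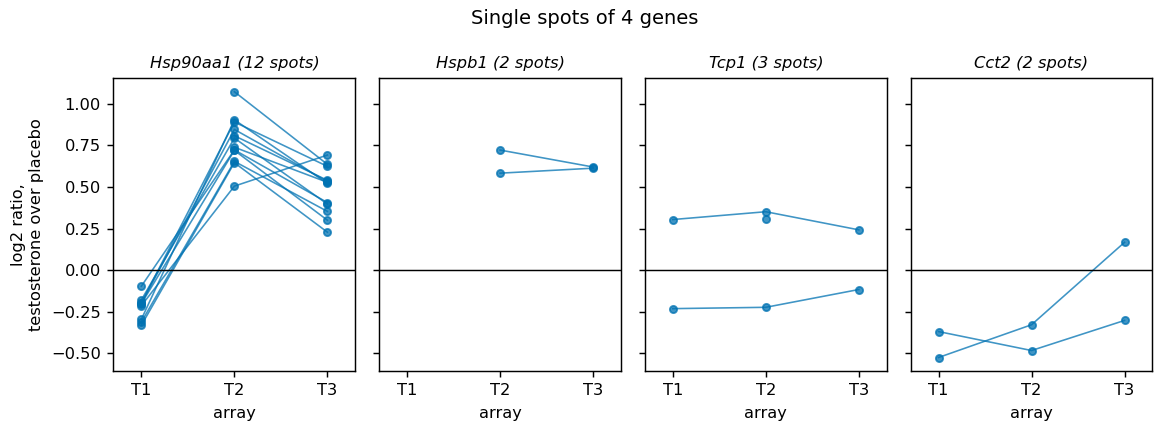
Log2 ratio of testosterone to placebo (y axis) on each array (x axis) for the single spots of Hsp90aa1, Hspb1, Tcp1 and Cct2, where a line joins the values of 1 spot. All 9 Hsp90aa1 spots with a value on T1 lie below 0 and all 12 lie above 0 on T2 and T3, while a pair of Tcp1 spots lie on opposite sides of 0 on every array.

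As a group, the 4 inducible genes had a median of -0.14, 1.08 and 0.98 on T1, T2 and T3, and their gene means had a median of 0.61 beside -0.07 for all genes. A wider list of 16 genes known to respond to heat adds constitutive, mitochondrial and co-chaperone genes. The 8 measured were the same 4 genes with Hspa8, Hspa4l, Hspe1 and Stip1. They had medians of -0.25, 0.59 and 0.57 on T1, T2 and T3. Of these genes, 6 of 8 were below 0 on T1 and 8 of 8 above 0 on T2 and on T3, with the 4 counted again. Of all genes, 55.8% were below 0 on T1, and 36.8% and 40.3% were above 0 on T2 and T3. Being below 0 on T1 and above 0 on both T2 and T3 was found for 7 of the 33 genes (Dnaja1, Hsp90aa1, Hsph1, Hspa8, Hspa9, Hspe1 and Stip1) or 21.2%, and for 7.28% of all genes, a pattern chosen after the values were seen. Immediate-early genes, which are induced within minutes by many stimuli, also differed between the arrays, with medians over the 10 measured of 20 of 0.00, 1.19 and 0.97 on T1, T2 and T3. Fos had log2 ratios of 0.29, 4.22 and 2.03 on T1, T2 and T3, and the phosphatase Dusp1 had 0.15, 1.67 and 1.44. Not every gene of the list was lowest on T1. Ier3 had 0.38, 0.23 and -0.15 on T1, T2 and T3, and Klf6 had 0.27, -0.19 and 0.23. Klf2, a transcription factor of the same list, passed as lower (-0.61, adjusted p = 0.0199 by limma), and that call was lost without T2 (0.131) and without T3 (0.243). Skeletal muscle markers also differed between arrays (5 measured of 14, median -0.03, -0.82 and -0.45 on T1, T2 and T3), as did neutrophil markers (4 of 14; 0.64, 0.15 and -0.11). Erythroid markers, of which 6 of 17 were measured, had medians of 0.11, 0.38 and 0.33 on T1, T2 and T3, lower on T1 as for the inducible genes. Fech, the last enzyme of heme synthesis, had 0.13, 0.63 and 0.32, and the red cell peroxiredoxin Prdx2 had -0.03, 0.46 and 0.40, while Ank1, a protein of the red cell membrane skeleton, had 0.23, -0.31 and -0.21. None of the 6 passed by limma. The part of these genes and cells in the values of the inducible chaperones was not tested.

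**Figure D3:**
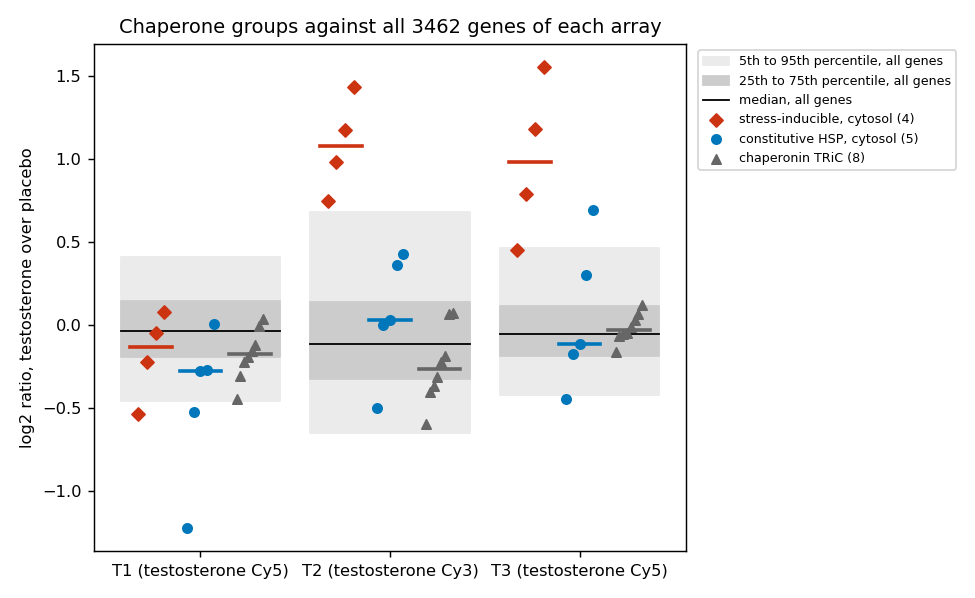
Log2 ratio of testosterone to placebo (y axis) on each array (x axis) for the stress-inducible genes (diamonds, 4), the constitutive heat-shock genes of the cytosol (circles, 5) and the chaperonin subunits (triangles, 8), with coloured bars at the group medians. Grey bands hold the 5th to 95th and the 25th to 75th percentile of all 3462 genes and the black line their median; the inducible median is -0.14, 1.08 and 0.98 on T1, T2 and T3.

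Stretches of DNA near the start sites are shown for inducible genes in which the letters of a heat shock element were found (Hsph1, Dnaja1 and Hspb1). Beside them stand Dnajb6 and Hspe1, which have the letters and lie outside the inducible group. Hsf1 binds repeats of the unit GAA in alternating orientation. RefSeq windows on GRCm38.p6, from 250 bases before to 50 after each start, were held for 27 of the 33 genes (not for Cct4, Dnajc5, Hsp90aa1, Hspa13, Hspa8 and Hspa9) and searched on both strands for 2 units (GAANNTTC) and for 3 units, in which GAA and TTC alternate with 2 free bases between them. A 3-unit match that starts with either triplet contains GAANNTTC and was counted under both. The capitals mark the matches.
Hsph1, chr5:149636287-149636316, minus strand, 20 to 49 bases after the upstream start and so within the transcribed part: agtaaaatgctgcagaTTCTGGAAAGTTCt
Dnaja1, chr4:40722218-40722467, plus strand, 250 bases before the upstream start: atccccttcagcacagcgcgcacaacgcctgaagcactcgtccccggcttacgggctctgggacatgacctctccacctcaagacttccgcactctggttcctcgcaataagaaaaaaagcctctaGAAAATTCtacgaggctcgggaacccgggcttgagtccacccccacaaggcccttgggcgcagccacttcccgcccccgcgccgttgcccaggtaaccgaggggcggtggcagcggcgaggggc
Hspb1, chr5:135887669-135887918, plus strand, 250 bases before the start: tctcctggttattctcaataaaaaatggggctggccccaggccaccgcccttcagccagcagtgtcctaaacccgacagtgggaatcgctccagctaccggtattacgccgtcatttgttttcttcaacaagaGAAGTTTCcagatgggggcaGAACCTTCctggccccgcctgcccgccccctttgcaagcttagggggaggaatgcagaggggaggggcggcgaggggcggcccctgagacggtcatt
Dnajb6, chr5:29735648-29735897, plus strand, 250 bases before the upstream start: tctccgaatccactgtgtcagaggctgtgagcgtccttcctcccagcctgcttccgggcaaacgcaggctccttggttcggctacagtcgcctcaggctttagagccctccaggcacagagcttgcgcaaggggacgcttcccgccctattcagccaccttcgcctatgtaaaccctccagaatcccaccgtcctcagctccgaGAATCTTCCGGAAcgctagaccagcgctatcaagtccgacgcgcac
Hspe1, chr1:55088053-55088082, plus strand, 95 to 66 bases before the start: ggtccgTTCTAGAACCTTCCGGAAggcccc

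The 3-unit motif was found for 3 of the 27 genes (Hsph1, Hspe1 and Dnajb6), or 11.1%, and for 0.662% of all 27025 genes with a window. The 2-unit motif was found for those and for Dnaja1 and Cct2, which is 5 of 27 or 18.5%, against 9.04% of all genes. Genes with the letters did not share 1 pattern of ratios. Hsph1 and Dnaja1 had the split described above. Hspe1 had the same signs with smaller ratios on T2 and T3 (-0.27, 0.08 and 0.02 on T1, T2 and T3). Dnajb6 had 0.06, 0.02 and 0.51, and Cct2 had -0.45, -0.41 and -0.07. Dnajb1 had a window without either motif. A match describes letters only.

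The constitutive heat-shock genes of the cytosol did not share 1 pattern. The 5 measured of 9 listed, all of the Hspa family, had a median of -0.28, 0.03 and -0.12 on T1, T2 and T3. The inducible median exceeded it by 0.14, 1.05 and 1.10 on T1, T2 and T3. Hspa8, the abundant housekeeping HSP70 of the cytosol, nevertheless had the split of the inducible genes, with -0.53, 0.43 and 0.69 on T1, T2 and T3. It stood at percentile 3.8 of all genes on T1 and at 98.7 on T3, and its mean of 0.20 ± 0.64 (n = 3) did not pass (adjusted p = 0.563 by limma). It passed without T1 (0.56, adjusted p = 0.00386 by limma), and without T2 it was 0.08 (0.902). Without T3 the mean turned to -0.05 (0.923).

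Hspa2, the gene that passed, had log2 ratios of -1.22, -0.50 and -0.45 on T1, T2 and T3, all below 0 and lowest on T1. The 95% interval of its mean from limma ran from -1.09 to -0.36. It was near the bottom of all genes on T1 (percentile 0.9), at percentile 11 on T2 and at 4.2 on T3. The call was lost without T2 (-0.84, adjusted p = 0.215 by limma) and without T3 (-0.86, 0.216), and after centring each array on its median (-0.66, 0.0682). On the same arrays B-cell markers had medians of -2.13, -2.24 and -1.65 over the 7 measured of 16, and 6 of these 7 passed as lower. Their part in the ratio of Hspa2 was not tested.

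None of the other 3 constitutive members passed by limma. Hspa4l, a relative of Hsph1, had 0.01, 0.36 and 0.30 on T1, T2 and T3 (mean 0.22 ± 0.19, n = 3). A further Hspa4l spot, without a value on T2, had 0.30 on T1 and 0.71 on T3. Hspa4, also of the HSP110 family, had -0.28, 0.03 and -0.12, and Hspa14, an HSP70 protein bound to ribosomes, had -0.27, 0.00 and -0.17. Both were lowest on T1. Their means of -0.12 ± 0.15 and -0.15 ± 0.14 did not pass (adjusted p = 0.465 and 0.376 by limma).

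Among the co-chaperones, Stip1, which hands proteins from HSP70 to HSP90, had log2 ratios of -0.27, 0.30 and 0.41 on T1, T2 and T3 (mean 0.15 ± 0.36, n = 3, adjusted p = 0.516 by limma). These are the signs of Hsph1, Dnaja1 and Hsp90aa1, with smaller ratios on T2 and T3. Bag1, a nucleotide exchange factor of HSP70, had -0.28, -0.32 and 0.09 (mean -0.17 ± 0.23, adjusted p = 0.364). Its second spot, without a value on T1, had -0.21 on T2 and -0.02 on T3.

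Of the 3 mitochondrial chaperones, Hspa9, the HSP70 of the matrix that also pulls in imported proteins, had -0.19, 0.03 and 0.08 on T1, T2 and T3. Hspe1, the lid of the mitochondrial chaperonin, had a mean of -0.06 ± 0.19 (n = 3; adjusted p = 0.755 by limma). Dnaja3, the J-domain partner of Hspa9, was below 0 on every array with -0.19, -0.45 and -0.13 and at both of its spots. Its mean of -0.26 ± 0.17 had an adjusted p of 0.169.

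The 6 chaperones of the endoplasmic reticulum did not share the split, with medians of -0.02, -0.21 and 0.02 on T1, T2 and T3 and none past the threshold. Hsp90b1, the HSP90 of that compartment, had -0.46, -0.58 and -0.02 on T1, T2 and T3 (mean -0.35 ± 0.30, n = 3, adjusted p = 0.133 by limma). Hspa5, the HSP70 known as BiP, had -0.14, -0.22 and 0.39, so that T3 alone was above 0 (mean 0.01 ± 0.33, adjusted p = 0.967). Dnajb12, a J-domain protein of the membrane, had 0.11, 0.47 and 0.05. The luminal J-domain proteins Dnajb11 and Dnajc10 had means of -0.13 ± 0.07 and -0.12 ± 0.21, and Hspa13 had 0.03 ± 0.05.

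Of 13 measured genes among 22 others that fold or watch over proteins in that compartment, 3 passed as lower and 0 as higher by limma, against 3.24% and 1.68% of all genes, with a median of -0.11. The 3 were Herpud1, which takes part in the removal of misfolded proteins (-0.66 ± 0.13, adjusted p = 0.0178), Eif2ak3, the stress sensor PERK (-0.48 ± 0.12, 0.0467), and Pdia4, a disulfide isomerase (-0.46 ± 0.10, 0.0475), with n = 3 each. All 3 calls were lost in limma's fit without T2 (adjusted p = 0.13, 0.227 and 0.227 for Herpud1, Eif2ak3 and Pdia4) and without T3 (0.154, 0.273 and 0.273). With each array centred on its median, Herpud1 still passed by limma (adjusted p = 0.0362), and Eif2ak3 and Pdia4 did not (0.058 and 0.0613). Of 11 measured genes among 26 heat shock factors and cytosolic partners, 0 passed in either direction, with a median of -0.13. Chordc1, an HSP90 co-chaperone, had -0.27, 0.35 and 0.45 on T1, T2 and T3, and Cdc37, which brings kinases to HSP90, had -0.28, -0.24 and -0.11. On T1, T2 and T3 respectively, 1, 3 and 5 of these 11 genes were above 0.

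The 8 measured subunits of the chaperonin TRiC ran from -0.45 to 0.04 on T1 and from -0.60 to 0.07 on T2. On T3 they ran from -0.165 to 0.12. Their gene means ran from -0.31 to 0.05 with a median of -0.13, 7 of 8 were below 0, against 62.4% of all genes, and none passed. Relative to the median of each array, 6 of 8 means were below 0, against 50.2% of all genes, and the median was -0.06. Cct2 had the lowest mean (-0.31 ± 0.21, n = 3, adjusted p = 0.133 by limma), with -0.45, -0.41 and -0.07 on T1, T2 and T3. Cct3 had -0.31, -0.60 and 0.03, and Cct5 had -0.23, -0.37 and -0.05. In all 3 of these subunits T3 was the array nearest to 0, though the Cct2 value on T3 averages spots at -0.30 and 0.17.

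Cct6a had a mean of -0.13 ± 0.09, Cct7 of -0.12 ± 0.10, Cct8 of -0.12 ± 0.22 and Cct4 of -0.05 ± 0.13 (n = 3 each). Tcp1, the subunit that gave the complex its name, was the only one with a mean above 0 (0.05 ± 0.02), and that mean hides spots that disagree. One spot had -0.23, -0.22 and -0.12 on T1, T2 and T3, and the other had 0.30, 0.35 and 0.24. A further Tcp1 spot, with a value on T2 only, had 0.31. Pfdn6, a subunit of prefoldin, which delivers proteins to TRiC, was the single prefoldin measured and differed in sign between T2 (0.68) and the others (-0.24 on T1, -0.40 on T3).

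**Figure D4:**
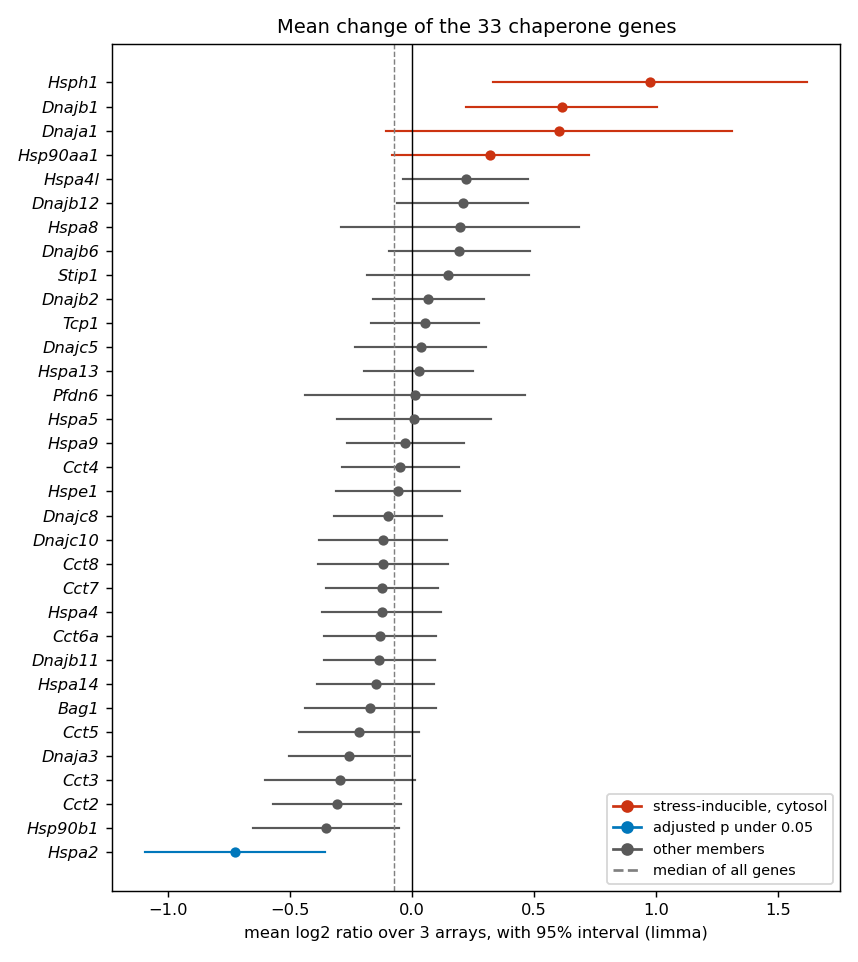
Mean log2 ratio over the 3 arrays (x axis, point) with its 95% interval from limma (line) for the 33 genes (rows, sorted by mean); red marks the stress-inducible genes, blue the gene with an adjusted p under 0.05, and the dashed line the median of all genes at -0.07. The means run from -0.72 for Hspa2 to 0.98 for Hsph1, and the 4 highest are the 4 inducible genes.

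The other J-domain proteins lay near 0, with medians of 0.08, -0.08 and 0.11 on T1, T2 and T3. Dnajb6, which holds back aggregation, had 0.51 on T3 (percentile 96.2 of all genes) and 0.06 and 0.02 on T1 and T2. Dnajb2 had a mean of 0.07 ± 0.09, Dnajc5, a protein of secretory vesicles, of 0.04 ± 0.23, and Dnajc8, which is linked to splicing, of -0.10 ± 0.02 (n = 3 each). Dnajc8 had the smallest spread of these 4 genes, with -0.09, -0.13 and -0.08.

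Over the 33 genes, 5 were above 0 on every array, or 15.2%, against 18.1% of all genes, and 9 were below 0 on every array, or 27.3%, against 33.9%. The median of their means was -0.05, beside -0.07 for all genes. With the 4 inducible genes left aside, the median of the other 29 was -0.19, -0.12 and 0.02 on T1, T2 and T3.

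Of the 7 matching genes without a value on all arrays, Hspb1, the small heat-shock protein of the inducible group, had no value on T1 at either of its spots. They had 0.58 and 0.72 on T2 and 0.61 and 0.62 on T3. With genes measured on at least 2 arrays admitted to the fit, Hspb1 passed as higher (0.63, adjusted p = 0.0494 by limma). In that fit 1.21% of the 4054 genes tested passed as higher and 2.59% as lower, Hspa2 among the latter. The Hspb1 call rests on T2 and T3 alone, and in the fit of all genes without T1 8.38% passed as higher. Bag4 had 0.17 and 0.27 on T1 and -0.07 at 1 spot on T3, and Dnajc3, an inhibitor of the kinase Eif2ak3, had 0.30 on T1 only. Dnajb4, Dnajb8, Hspa12a and Hspb8 had no value on any array.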

How the data were processed

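The authors deposited 1 signed log ratio for each spot of an array, and these were read as log2 because of their range (-3.37 to 4.47). The sources used here do not give the base, numerator, scanner, background correction, filter or scaling. All arrays correlated positively, so no sign was turned. Per the labels' protocols, 30 µg of total RNA per sample was made into aminoallyl cDNA and coupled to Cy3 or Cy5. The values were used without further normalization.

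Spots with 1 annotated gene were named through Entrez IDs and the RefSeq table of GRCm38.p6 (7880 of 8050 spots) and averaged per gene and array. The update changed no symbol on the spots of the matching chaperone genes. The 3462 genes measured on every array entered 1 intercept-only fit in limma (version 3.58.1, run under R 4.3.3; lmFit, then eBayes). Its two-sided p-values against a ratio of 0 were adjusted by Benjamini-Hochberg over all of these genes, with a threshold of 0.05. The fit was tested on simulated data. Precision is limited by the number of arrays, and the 95% interval of a typical gene (the median) reached 0.248 to either side. Nothing says whether spots of one family cross-hybridise, so closely related genes may share signal.

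The genes, role groups, lists, naming rule and alternatives were chosen with earlier results of these data known. Role groups came from textbook knowledge and got no test. The rule names every gene of groups of 6 or fewer, of the inducible, constitutive, chaperonin and prefoldin groups, and those that passed, which came to all 33. Nothing in the labels gives a batch. The alternatives were T2 turned, each array left out, centring, centring with scaling, a dye term, a threshold of 0.10, robust eBayes, at least 2 arrays, single spots, the platform's own symbols and a wider inducible list.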

Additional observations from a re-analysis of the deposited data

How the results depend on the processing

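No gene passed as higher with all arrays, and 5 did without T1, 1 with a dye term (Dnajb1), 2 at a threshold of 0.10 (Dnajb1 and Hsph1) and 1 with genes on at least 2 arrays (Hspb1); leaving out 1 array gave 0 to 5. The 1 lower gene, Hspa2, was kept without T1, at 0.10, with at least 2 arrays and with the platform's symbols. The count of lower genes was 0 with T2 turned (Hspa2 -0.39, adjusted p = 0.999), after median centring (-0.66, 0.0682), after centring and scaling (-0.68, 0.0639), with a dye term (-0.67, 0.0601), with robust eBayes (-0.72, 0.052) and with single spots (-0.72, 0.0519, 6051 spots tested), and 0 to 1 when 1 array was left out. All p here are limma's. Turning T2 puts a dye effect in the place of the treatment, and the inducible median was then -0.11, the chaperonin median 0.015, and 0 of 3462 genes passed in either direction. Leaving out 1 array, the inducible median ran from 0.38 to 1.03, and the wider inducible list gave 0.27. The other medians moved by less than their spread between arrays. Means that changed sign passed neither with all arrays nor in the fit that turned them. With T2 turned they were 0.044 (Bag1), 0.11 (Cct3), 0.03 (Cct5), 0.018 (Cct6a), 0.0057 (Cct7), 0.092 (Cct8), -0.18 (Dnaja1), 0.042 (Dnaja3), -0.039 (Dnajb1), -0.10 (Dnajb12), 0.11 (Dnajc10), -0.17 (Hsp90aa1), 0.036 (Hsp90b1), -0.017 (Hspa4l), -0.088 (Hspa8), -0.44 (Pfdn6) and -0.052 (Stip1). After median centring Cct4 was 0.023, Hspa9 0.044 and Hspe1 0.012, after centring and scaling Cct4 was 0.0073, Hspa9 0.038 and Pfdn6 -0.0035, and with a dye term Dnajc5 was -0.027 and Hspa5 -0.0465. Leaving out 1 array in turn, the means of genes that changed sign ran from -0.11 to 0.0265 (Cct4), -0.0605 to 0.16 (Dnajc5), -0.0015 to 0.052 (Hspa13), -0.18 to 0.13 (Hspa5), -0.0495 to 0.56 (Hspa8), -0.078 to 0.0555 (Hspa9), -0.125 to 0.048 (Hspe1) and -0.32 to 0.22 (Pfdn6). Each value is already a ratio within a pair, so the fit against 0 uses the pairing. With only 1 group, no further paired analysis was possible. No spot was judged against its background, since brightness was not used here.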
